A study of Mus musculus with 4 samples.

Results

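The insulin-like growth factor binding proteins (IGFBPs) are a family of 7 genes in the mouse, Igfbp1 to Igfbp7, and they were followed here in cardiac fibroblasts with and without plasma membrane calcium ATPase isoform 4 (PMCA4). They are 7 of 20586 genes named by a single symbol on the arrays. All probe sets annotated to 1 of these 7 symbols were taken, which gave 16 of 45037 probe sets. Igfbp4 had 6 probe sets, Igfbp7 had 3, Igfbp3 and Igfbp5 had 2 each, and Igfbp1, Igfbp2 and Igfbp6 had 1 each. There were 4 Affymetrix GeneChips, 1 for each of PMCA4-/- fibroblasts given phenylephrine, untreated PMCA4-/- fibroblasts, WT fibroblasts given phenylephrine and untreated WT fibroblasts. Phenylephrine, an agonist of the α1-adrenergic receptor, was given at 30 µM for 72 h. All cells came from 3-month-old mice and had been cultured for 4 days. PMCA4-/- mice carry a germline deletion of early exons, so every cell of the animal is targeted, and the RNA on an array was pooled from 3 batches of fibroblasts. Each condition had 1 array, so no value has a replicate error, and a difference between genotypes cannot be told apart from any other difference between the pools.

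IGFBPs are secreted proteins that hold insulin-like growth factors (IGFs) outside the cell and so set how much growth factor can reach its receptor. Most of them bind IGFs with high affinity, whereas IGFBP7 binds them weakly. Proteases such as pregnancy-associated plasma protein A (PAPP-A) cut several IGFBPs and thereby free the growth factor, and IGFBP4 is also known to inhibit Wnt signalling. The study named Igfbp4 and Igfbp5 among Wnt regulators from these same arrays, so their direction on these arrays is not independent evidence.

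The genes form pairs on the chromosomes. In the RefSeq annotation Igfbp1 and Igfbp3 are next to each other on chromosome 11, and Igfbp2 and Igfbp5 are next to each other on chromosome 1, with no protein-coding gene between the members of either pair. Igfbp4 also lies on chromosome 11, Igfbp6 on chromosome 15 and Igfbp7 on chromosome 5. Atp2b4, the gene of PMCA4, lies on chromosome 1 too, with 363 protein-coding genes between it and Igfbp5. All 7 genes were found in the RefSeq promoter table, with 8 promoters of 300 bases (250 before and 50 after the start site). The promoters of 4 genes are shown, those of Igfbp3 and Igfbp7, which were lower in PMCA4-/- cells, and those of Igfbp4 and Igfbp5, which were higher. Capitals mark a match on either strand to the TATA box TATAAA or the GC box GGGCGG. The search also covered the CCAAT box, spelled CCAAT, and the AP-1 site, spelled TGACTCA. No match overlapped another in these promoters.
Igfbp3 (GRCm38.p6 chr11:7213874-7214173, minus strand): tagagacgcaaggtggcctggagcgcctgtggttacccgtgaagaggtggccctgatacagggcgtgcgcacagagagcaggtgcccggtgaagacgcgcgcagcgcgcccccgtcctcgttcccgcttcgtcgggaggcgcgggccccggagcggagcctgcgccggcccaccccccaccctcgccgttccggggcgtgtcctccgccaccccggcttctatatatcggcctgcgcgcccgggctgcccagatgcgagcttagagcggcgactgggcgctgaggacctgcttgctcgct
Igfbp7 (GRCm38.p6 chr5:77407996-77408295, minus strand): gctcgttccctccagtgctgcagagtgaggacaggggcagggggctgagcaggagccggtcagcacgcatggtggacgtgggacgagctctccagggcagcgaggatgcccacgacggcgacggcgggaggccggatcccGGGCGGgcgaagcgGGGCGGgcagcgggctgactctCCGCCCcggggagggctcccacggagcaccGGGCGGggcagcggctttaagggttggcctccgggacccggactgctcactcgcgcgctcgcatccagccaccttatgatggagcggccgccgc
Igfbp4 (GRCm38.p6 chr11:99040994-99041293, plus strand): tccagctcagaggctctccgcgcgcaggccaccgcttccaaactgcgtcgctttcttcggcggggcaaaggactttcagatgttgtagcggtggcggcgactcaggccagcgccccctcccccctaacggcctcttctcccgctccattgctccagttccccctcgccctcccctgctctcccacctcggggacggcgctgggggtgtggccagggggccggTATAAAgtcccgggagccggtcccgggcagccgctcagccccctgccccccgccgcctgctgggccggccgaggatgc
Igfbp5 (GRCm38.p6 chr1:72874816-72875115, minus strand): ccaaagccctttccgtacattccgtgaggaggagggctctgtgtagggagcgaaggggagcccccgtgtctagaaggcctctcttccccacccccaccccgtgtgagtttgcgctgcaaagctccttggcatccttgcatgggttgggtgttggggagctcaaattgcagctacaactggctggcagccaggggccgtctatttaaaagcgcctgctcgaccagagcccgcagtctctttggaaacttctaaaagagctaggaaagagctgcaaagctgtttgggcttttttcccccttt
The Igfbp4 promoter held TATAAA 28 bases before the start site, a motif present in 13.6% of all 32851 promoters of this length. The Igfbp7 promoter held 4 matches to GGGCGG, present in 35.7% of promoters, and those of Igfbp3 and Igfbp5 held none of the 4 motifs. Of the other promoters, that of Igfbp6 held 1 TATAAA and 2 CCAAT, 1 of Igfbp2 held 3 GGGCGG and the other held 1 TGACTCA, while Igfbp1 held none. CCAAT was in 37.4% and TGACTCA in 5.2% of all promoters. The promoters of Igfbp3 and Igfbp7 held 37 and 33 CpG dinucleotides, that of Igfbp4 held 27 and that of Igfbp5 held 10, against a median of 7 over all promoters.

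Values below are intensities on a linear scale, estimated by the authors with PUMA (Propagating Uncertainty in Microarray Analysis) unless Robust Multiarray Average (RMA) is named. The median intensity of every array was 34.0, and a probe set under the median of its array is called dim here. Probe sets with a mean intensity over the 4 arrays above 35.1, the median of these means, were tested, which left 22518 probe sets in all and 13 of the 16 of this family. Igfbp1, Igfbp2 and 1 probe set of Igfbp7 were dim on all 4 arrays and were not tested. Both Igfbp3 probe sets passed this filter through the WT arrays alone. Across the tested probe sets, which are not independent, the log2 values of the arrays of 1 genotype correlated at 0.994 to 0.995 and those of different genotypes at 0.877 to 0.881.

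All 12 fibroblast markers, Col1a1 and Pdgfra among them, were above the filter. In PMCA4-/- cells limma called 4 of them higher and 2 lower, against 21.7% and 22.9% of all 11424 genes tested, and did not call 6. With phenylephrine and untreated, Col1a1 had 1461 and 1854 in PMCA4-/- cells against 930 and 933 in WT cells. Pdgfra had 7982 and 8671 in PMCA4-/- cells against 11456 and 11058 in WT cells. None of 7 cardiomyocyte markers and 1 of 6 endothelial markers were, and Actn2 and Pecam1 had intensities under 1 on all 4 arrays. Of 6 macrophage markers 4 passed, and Ptprc and Cd68 were dim on all 4 arrays. Limma called Csf1r and Cd14 higher in PMCA4-/- cells and did not call Lyz2 and Adgre1. With phenylephrine and untreated, Cd14 had 1431 and 1295 in PMCA4-/- cells against 987 and 891 in WT cells. Csf1r had 492 and 378 in PMCA4-/- cells against 180 and 153 in WT cells. Lyz2 had 431 and 441 in PMCA4-/- cells against 422 and 379 in WT cells. The summed intensity of all 6 in the same order was 2430 and 2189 in PMCA4-/- cells, against 1672 and 1505 in WT cells. For 6 smooth muscle and pericyte markers, 3 of which passed, the sums in the same order were 293 and 275 in PMCA4-/- cells, against 471 and 464 in WT cells. Among these Rgs5 had 34.4 and 30.3 in PMCA4-/- cells and 186 and 185 in WT cells, while Cnn1, below the filter, had 35.3 and 14.7 in PMCA4-/- cells and 0.695 and 0.983 in WT cells. The sums for 6 epicardial markers, of which Wt1 passed, were 97.5 and 119 in PMCA4-/- cells, against 107 and 107 in WT cells. Wt1 had 40.98 and 57.4 in PMCA4-/- cells and 87.7 and 91.9 in WT cells (limma adjusted p = 0.0115), while Krt19, below the filter, had 27.4 and 43.1 in PMCA4-/- cells and 1.98 and 1.19 in WT cells. The part of these cell types in the differences of the binding proteins was not tested, and in RNA of whole cultures fewer cells of a type and less RNA per cell cannot be told apart. The targeted gene Atp2b4 was read by 1 probe set, with intensities in this order of 37.9 and 31.6 in PMCA4-/- cells and 23.3 and 19.6 in WT cells, and no source used here places this probe set relative to the deletion, so it does not check the genotype.

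Of the 7 genes, 5 had a probe set above the filter. The genotype difference changed sign between the 2 pairs at 0 of their 13 tested probe sets and at 15.9% of all tested probe sets. The 13 include 2 of Igfbp3, which the filter kept for their WT values, and 6 of Igfbp4. This count is therefore not read as a trait of the family. Igfbp3 was near or below the array median in PMCA4-/- fibroblasts and bright in WT fibroblasts, Igfbp7 was lower in PMCA4-/- fibroblasts, and Igfbp4, Igfbp5 and Igfbp6 were higher. The limma fit had genotype and treatment as terms, used the 4 arrays and all 22518 probe sets, and was adjusted over all of them by Benjamini-Hochberg. Its error rests on how far a genotype difference changed between the 2 treatments, not on the spread between cultures. It called 9 of the 13 tested probe sets of the family higher and 4 lower, and over all tested probe sets 20.6% were called higher and 22.7% lower. Of these calls 2 of the lower ones were the Igfbp3 probe sets, which the filter kept for their WT values, and without Igfbp3 the counts were 9 higher and 2 lower of 11. Probe sets of 1 gene are not independent, and 6 of the 9 higher ones read Igfbp4. Read at the probe set with the highest mean, 3 of the 5 genes were called higher and 2, Igfbp3 among them, lower. The shares over all 11424 genes read in this way were 21.7% and 22.9%. At least 2-fold apart in the same direction in both pairs of arrays were 4 higher and 3 lower probe sets of the family, against 3.58% and 3.89% of all tested probe sets, and without Igfbp3 these were 4 and 1. At 1.5-fold they were 8 and 4, against 7.95% and 9.16%, and without Igfbp3 8 and 2. With no filter on low values, limma called 0 of all 45037 probe sets for genotype at the adjusted threshold and 10113 at an unadjusted p under 0.05, so the calls for the family and for the IGF axis genes below rest on that filter. Over probe sets, 6 of them of Igfbp4, the median log2 difference without Igfbp3 was 0.84 in the phenylephrine and 0.95 in the untreated pair. With Igfbp3 it was 0.78 and 0.82, against −0.02 and −0.01 over all tested probe sets.

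**Figure D1:**
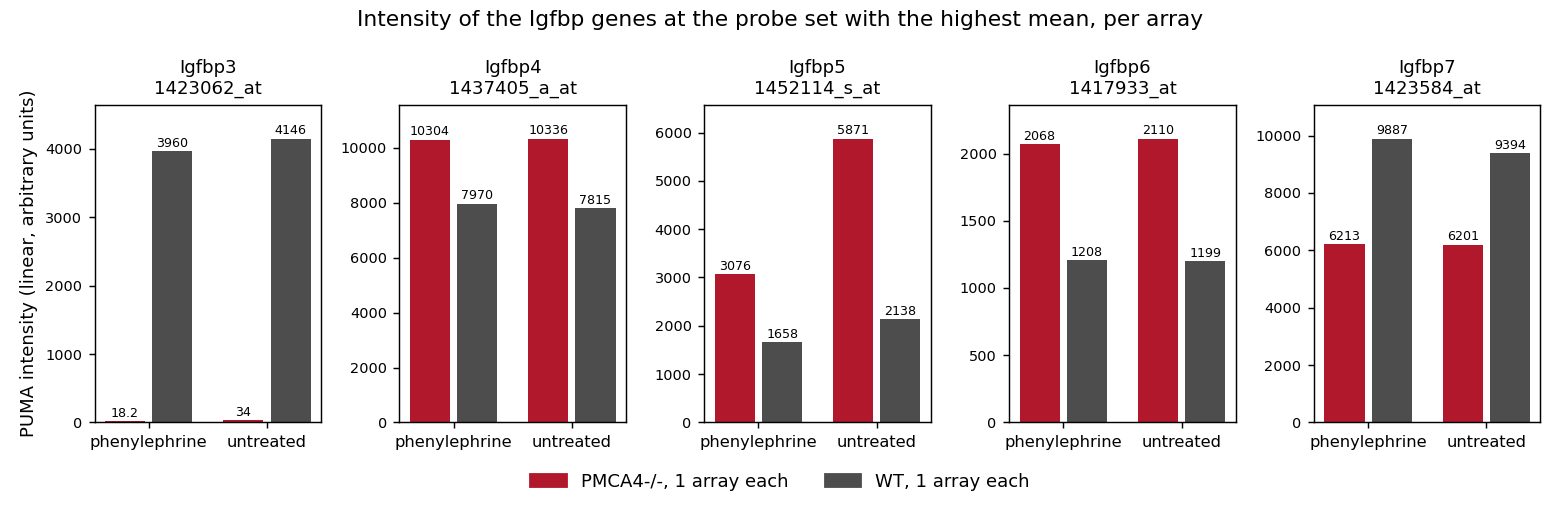
PUMA intensity (linear, axis from 0) of each Igfbp gene above the filter at its probe set with the highest mean, with 1 bar per array and so no error bar; PMCA4-/- bars are red and WT bars grey. Igfbp3 stood at 18.2 and 34.0 in PMCA4-/- cells against 3960 and 4146 in WT cells, while Igfbp4, Igfbp5 and Igfbp6 were higher and Igfbp7 lower in PMCA4-/- cells in both pairs.

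Igfbp3 encodes the carrier of most IGF in blood, where it forms a complex with the growth factor and the acid-labile subunit. Probe set 1423062_at had intensities with phenylephrine and untreated of 18.2 and 34.0 in PMCA4-/- cells and 3960 and 4146 in WT cells. The second probe set, 1458268_s_at, had 0.530 and 0.886 in PMCA4-/- cells and 1730 and 2101 in WT cells. At each probe set the intensity was far lower in PMCA4-/- cells in both pairs. With values under the array median raised to that median, 1423062_at was at least 117-fold lower in PMCA4-/- cells in the phenylephrine pair and 122-fold lower in the untreated pair. In the same way 1458268_s_at was at least 50.9-fold and at least 61.8-fold lower. Ranked by these values from the lowest, 1423062_at was number 2 of all 22518 tested probe sets in the phenylephrine pair and number 1 in the untreated pair, and 1458268_s_at was number 12 and number 8. No genotype p is given for Igfbp3, since its high WT values alone brought it past the filter, and no fitted size, since the PMCA4-/- values are near or below the array median. With RMA, 1423062_at had 71.1 and 112 in PMCA4-/- cells against 5154 and 5434 in WT cells, at least 70.8-fold lower in the phenylephrine and 48.6-fold lower in the untreated pair by the same rule, and 1458268_s_at was at least 40.3-fold and 49.1-fold lower. The size of the fall thus depended on the estimate, and its direction did not.

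Igfbp7, whose product is found in the extracellular matrix and around blood vessels, was read by 2 probe sets above the filter and 1 dim one. At 1423584_at the intensities with phenylephrine and untreated were 6213 and 6201 in PMCA4-/- cells and 9887 and 9394 in WT cells. At 1423585_at they were 167 and 156 in PMCA4-/- cells and 409 and 373 in WT cells. Both probe sets were lower in PMCA4-/- cells in both pairs. The fall was 1.59-fold and 1.51-fold in the phenylephrine and the untreated pair at the first, and 2.45-fold and 2.39-fold at the second. The limma genotype effect on the log2 scale was −0.63 (standard error 0.08, adjusted p = 0.00889) at 1423584_at and −1.28 (standard error 0.08, adjusted p = 0.00187) at 1423585_at. The third probe set, 1437804_at, had PUMA intensities of 0.281 to 0.636. With RMA it had 158 and 153 in PMCA4-/- cells and 164 and 169 in WT cells, passed the filter on RMA values, and was not called by limma (adjusted p = 0.221).

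Igfbp4 encodes a binding protein that mostly holds back IGF action until it is cut by PAPP-A. All 6 of its probe sets were above the array median on all 4 arrays, and each was higher in PMCA4-/- cells in both pairs. At the brightest, 1437405_a_at, intensities with phenylephrine and untreated were 10304 and 10336 in PMCA4-/- cells and 7970 and 7815 in WT cells, a rise of 1.29-fold and 1.32-fold. At the dimmest, 1421991_a_at, they were 594 and 475 in PMCA4-/- cells and 117 and 151 in WT cells, a rise of 5.06-fold and 3.16-fold. The other 4 probe sets lay between these, with rises of 1.70-fold to 2.83-fold in the phenylephrine and 1.66-fold to 2.32-fold in the untreated pair. At 1421992_a_at, for example, the intensities were 2521 and 2143 in PMCA4-/- cells and 891 and 922 in WT cells. The limma genotype effect was 0.39 (standard error 0.08, adjusted p = 0.0254) at 1437405_a_at, and at the other 5 probe sets the adjusted p was 0.00274 to 0.00604. So the direction was shared by the 6 probe sets and the size was not.

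The Igfbp4 difference was smaller at brighter probe sets, with 1 step out of order in each pair. By mean intensity the 6 probe sets lay at 9106, 6684, 4047, 1743, 1619 and 334. In this order their log2 differences in the untreated pair were 0.40, 0.73, 1.07, 0.95, 1.22 and 1.66. The brightest ranked 178 and the next 348 among all 45037 probe sets. With RMA the difference in the untreated pair was again smallest at 1437405_a_at (0.42) and largest at 1421991_a_at (1.28). The 2 tested Igfbp7 probe sets had the same order, with a log2 difference in the untreated pair of −0.60 at mean intensity 7924 and −1.26 at mean intensity 276. The third, 1437804_at, went the other way with RMA. It was the dimmest of the 3 (153 to 169) and differed least, by −0.06 in the phenylephrine and −0.14 in the untreated pair. The part of probe brightness in these sizes was not tested. Suffixes differ too, since Affymetrix marks with _s_at and _x_at those probe sets whose probes can match further transcripts.

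**Figure D2:**
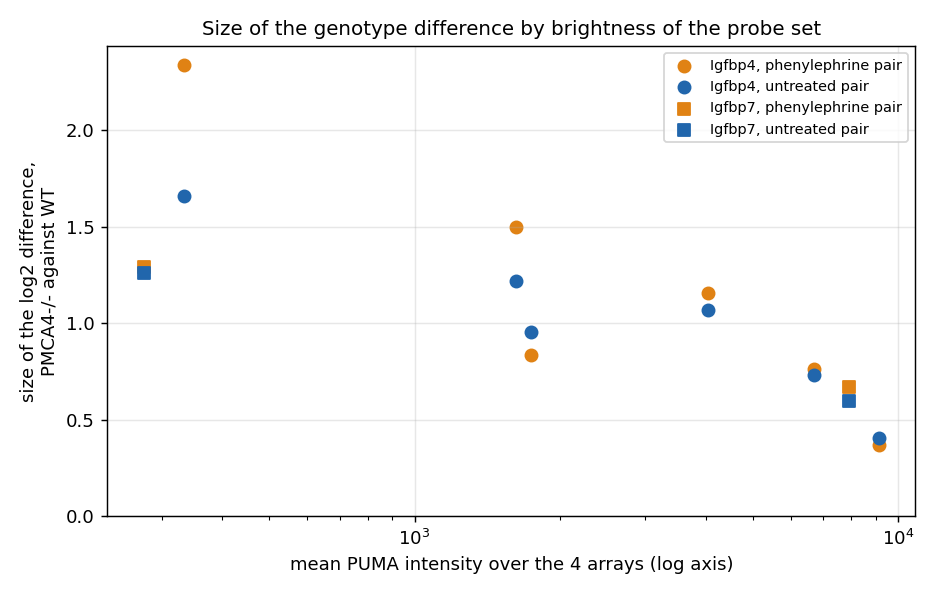
Size of the log2 difference between PMCA4-/- and WT cells (vertical axis, from 0) against the mean PUMA intensity over the 4 arrays (horizontal log axis) for the 6 probe sets of Igfbp4 (circles) and the 2 tested probe sets of Igfbp7 (squares), with 1 point per pair of arrays. The brightest Igfbp4 probe set showed 0.40 in the untreated pair and the dimmest 1.66.

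Igfbp5 encodes a binding protein that also attaches to extracellular matrix. At 1452114_s_at the intensities with phenylephrine and untreated were 3076 and 5871 in PMCA4-/- cells and 1658 and 2138 in WT cells. The rise was 1.86-fold and 2.75-fold in the phenylephrine and the untreated pair. At 1422313_a_at the intensities were 110 and 154 in PMCA4-/- cells and 49.98 and 47.6 in WT cells, a rise of 2.21-fold and 3.23-fold. The limma genotype effect was 1.17 (standard error 0.16, adjusted p = 0.00996) at the first and 1.42 (standard error 0.16, adjusted p = 0.00643) at the second. With RMA the rise at 1452114_s_at was 1.79-fold and 2.90-fold, and at 1422313_a_at it was 1.37-fold and 1.62-fold.

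Igfbp6, whose product prefers IGF-II over IGF-I, was read by 1 probe set, 1417933_at. Its intensities with phenylephrine and untreated were 2068 and 2110 in PMCA4-/- cells and 1208 and 1199 in WT cells. The 2 arrays of a genotype differed by at most 1.02-fold, and the genotypes by 1.71-fold and 1.76-fold. The limma genotype effect was 0.80 (standard error 0.08, adjusted p = 0.0053), and RMA gave a rise of 1.68-fold and 1.72-fold.

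Igfbp1, which encodes a binding protein made mainly by the liver under the control of insulin, had PUMA intensities with phenylephrine and untreated of 0.308 and 0.607 in PMCA4-/- cells and 0.217 and 0.386 in WT cells. Igfbp2, which encodes a binding protein abundant in serum, had 18.6 and 18.3 in PMCA4-/- cells and 16.3 and 10.5 in WT cells. All 8 values were below the array median, and RMA values were 11.03 to 13.1 for Igfbp1 and 26.5 to 30.4 for Igfbp2, also below the array medians of 72.5 to 73.0. Within both pairs of chromosomal neighbours, 1 gene was thus bright in at least 1 genotype and the other was dim in both.

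**Figure D3:**
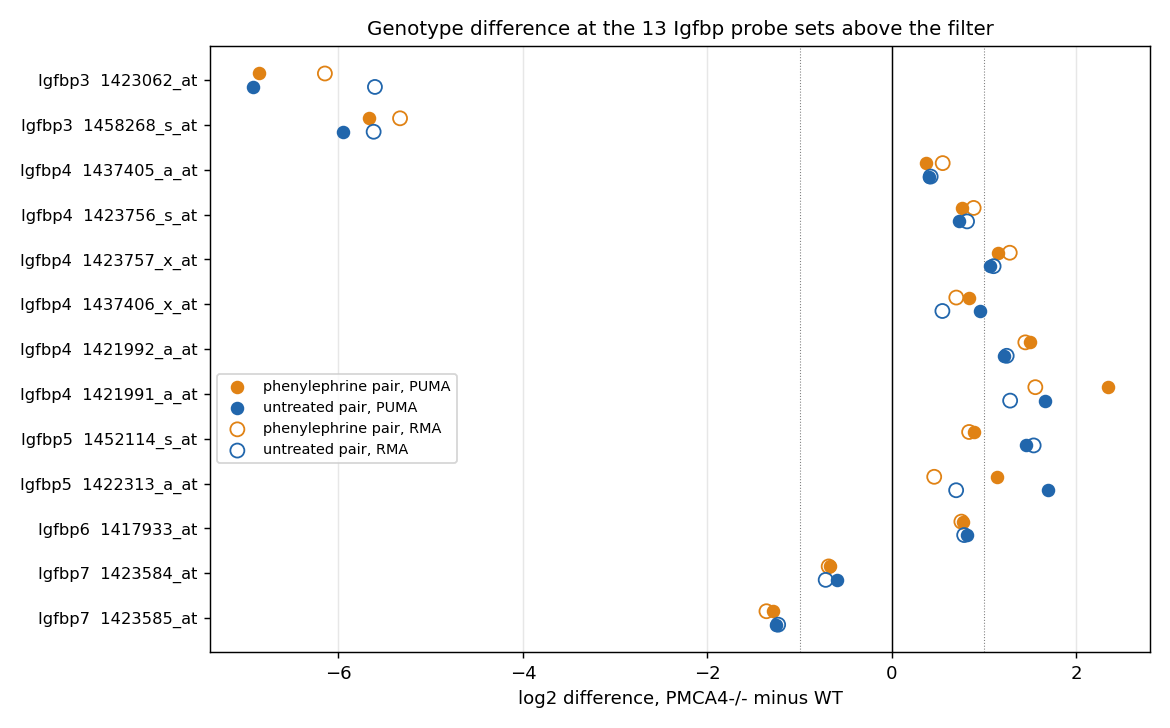
Log2 difference between PMCA4-/- and WT cells (PMCA4-/- minus WT) at the 13 tested probe sets, with the phenylephrine pair in orange and the untreated pair in blue, PUMA as filled circles and RMA as open circles, both with values under the array median raised to it. Dotted lines mark 2-fold. Every point of Igfbp4, Igfbp5 and Igfbp6 lies right of 0 and every point of Igfbp3 and Igfbp7 left of it.

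The nearest other protein-coding genes, looked up after the values of the family were seen, varied. Tns3, on the far side of Igfbp3 from Igfbp1, had intensities with phenylephrine and untreated of 3412 and 3584 in PMCA4-/- cells and 5632 and 5682 in WT cells, a log2 difference of −0.72 in the phenylephrine and −0.66 in the untreated pair. Rpl37a, next to Igfbp2, differed by −0.13 and 0.09, and Tns1, 2 genes along from Igfbp5, by −1.05 and −1.14. Also 2 genes along were Tns2 (0.07 and 0.09) and Csad (0.42 and 0.30) from Igfbp6. Noa1, 2 genes along from Igfbp7, differed by −0.04 and −0.11. Top2a, next to Igfbp4, differed by 0.76 and 0.85, Spryd3, next to Igfbp6, by 0.33 and 0.24, and Polr2b and Adgrl3, on either side of Igfbp7, by −0.26 and −0.23 and by −0.22 and −0.03. The median size of this difference over all tested probe sets was 0.30 in each pair. Polr2b, Adgrl3, Rpl37a, Tns2 and Noa1 in both pairs and Spryd3 in the untreated pair were below it.

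The second question of the design was what phenylephrine did to the family. In limma no probe set was called for phenylephrine among all 22518, 0 higher and 0 lower, and 871 (3.87%) had an unadjusted p under 0.05, with 2 of the 13 probe sets of the family among them. Igfbp5 had the largest response of the family among the genes that were above the array median in both genotypes. At 1452114_s_at its intensity was 3076 in phenylephrine-treated against 5871 in untreated PMCA4-/- cells, 1.91-fold lower, and 1658 in phenylephrine-treated against 2138 in untreated WT cells, 1.29-fold lower. Of all tested probe sets, 0.320% were lower by at least as much in PMCA4-/- cells. The limma phenylephrine effect was −0.65 (standard error 0.16, unadjusted p = 0.0144, adjusted p = 0.996). The log2 response in PMCA4-/- minus that in WT cells was −0.57, and 2.61% of all tested probe sets had a difference at least as far below 0. With 1 array per condition this difference of responses has no residual degree of freedom and was not tested. When tests were limited to the probe sets above the upper quartile of mean intensity, limma called this probe set lower (adjusted p = 0.0145). In that fit 4 of 11259 probe sets were called lower. RMA gave responses of −1.07 in PMCA4-/- and −0.37 in WT cells. At the second probe set, 1422313_a_at, the PUMA responses were −0.48 in PMCA4-/- and 0.07 in WT cells.

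Igfbp4, Igfbp6 and Igfbp7 had smaller responses at their brightest probe sets. The log2 response of Igfbp4 there was −0.0045 in PMCA4-/- and 0.03 in WT cells. That of Igfbp6 was −0.03 in PMCA4-/- and 0.01 in WT cells, and that of Igfbp7 was 0.0029 in PMCA4-/- and 0.07 in WT cells. At the dimmest Igfbp4 probe set the responses were 0.32 in PMCA4-/- and −0.36 in WT cells. Over all tested probe sets the median size of the response was 0.09 in PMCA4-/- and 0.10 in WT cells. In WT cells Igfbp3 had a response of −0.07 at 1423062_at and −0.28 at 1458268_s_at. The probe set 1458268_s_at was the other one with an unadjusted p under 0.05 in limma, with an adjusted p of 0.996, in a fit that includes its dim PMCA4-/- values. In PMCA4-/- cells the Igfbp3 values were too near the array median or too far below it to give a response.

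**Figure D4:**
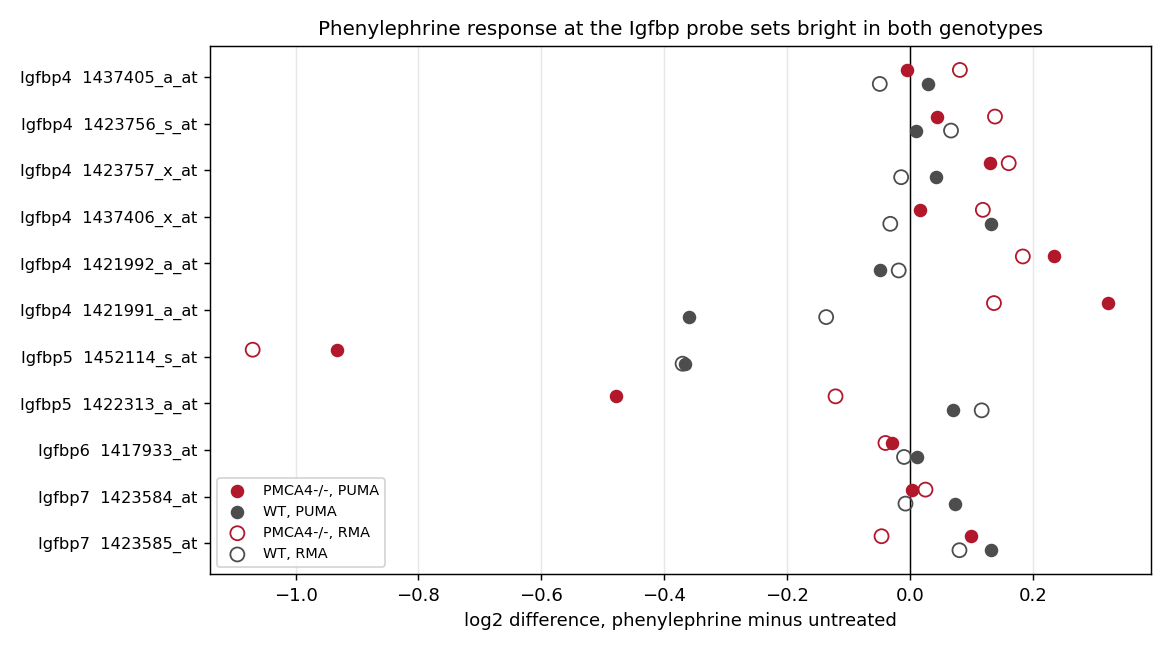
Log2 difference between phenylephrine-treated and untreated cells at the 11 tested probe sets of Igfbp4 to Igfbp7, in PMCA4-/- (red) and WT cells (grey), with PUMA as filled and RMA as open circles and 1 value per pair of arrays. The Igfbp5 probe set 1452114_s_at stands apart at −0.93 in PMCA4-/- and −0.37 in WT cells with PUMA.

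The binding proteins act together with ligands, receptors and proteases, and 16 such genes were examined at the probe set with the highest mean. Of 13 above the filter, limma called 7 higher and 4 lower in PMCA4-/- cells, and 2 were not called. Over all 11424 genes read in the same way, 21.7% were called higher and 22.9% lower. Their median log2 difference was 0.34 in the phenylephrine and 0.29 in the untreated pair. Both ligands were higher. Igf2 had intensities with phenylephrine and untreated of 8393 and 8526 in PMCA4-/- cells and 117 and 171 in WT cells (limma adjusted p = 0.000315), so the genotypes were far apart. Igf1 had 3837 and 4325 in PMCA4-/- cells and 3040 and 3541 in WT cells (limma adjusted p = 0.0421), and of its other 3 probe sets 2 were called higher and 1 was not. Among the receptors, Igf2r, which takes IGF-II into the cell for breakdown, had 3074 and 3029 in PMCA4-/- cells and 2296 and 2384 in WT cells and was called higher. Insr, the insulin receptor, was called higher too, with 809 and 826 in PMCA4-/- cells and 582 and 542 in WT cells. Igf1r, the main signalling receptor, had 2196 and 2296 in PMCA4-/- cells and 2368 and 2386 in WT cells and was not called (limma adjusted p = 0.453).

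Genes that act on IGFBPs after secretion went both ways. Pappa, which encodes PAPP-A, was called higher, with intensities with phenylephrine and untreated of 472 and 542 in PMCA4-/- cells and 136 and 123 in WT cells. Stc1 and Stc2 encode stanniocalcins, which inhibit PAPP-A, and both were called higher. Stc1 had 2265 and 2835 in PMCA4-/- cells and 875 and 864 in WT cells, and Stc2 had 286 and 333 in PMCA4-/- cells and 172 and 190 in WT cells. Pappa2, a related protease, was lower, with 71.6 and 50.7 in PMCA4-/- cells and 101 and 93.1 in WT cells. The secreted proteases Htra1 and Adamts1 were lower as well, Htra1 with 3980 and 4009 in PMCA4-/- cells and 5766 and 5780 in WT cells and Adamts1 with 1585 and 1788 in PMCA4-/- cells and 2626 and 2524 in WT cells. The limma adjusted p of these 6 genes ranged from 0.00164 for Pappa to 0.0177 for Pappa2. Of the proteins that receptors act through inside the cell, Irs2 was lower (88.3 and 63.6 in PMCA4-/- cells and 126 and 104 in WT cells), Irs1 was not called and Grb10 was below the filter. The log2 difference of Irs2 was −0.51 in the phenylephrine and −0.70 in the untreated pair with PUMA but −0.11 and −0.23 with RMA, and on RMA values limma called 3 rather than 4 IGF axis genes lower. Igfals, the gene of the acid-labile subunit that joins the complex of IGFBP3, and Igfbpl1 were dim on all 4 arrays.

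**Figure D5:**
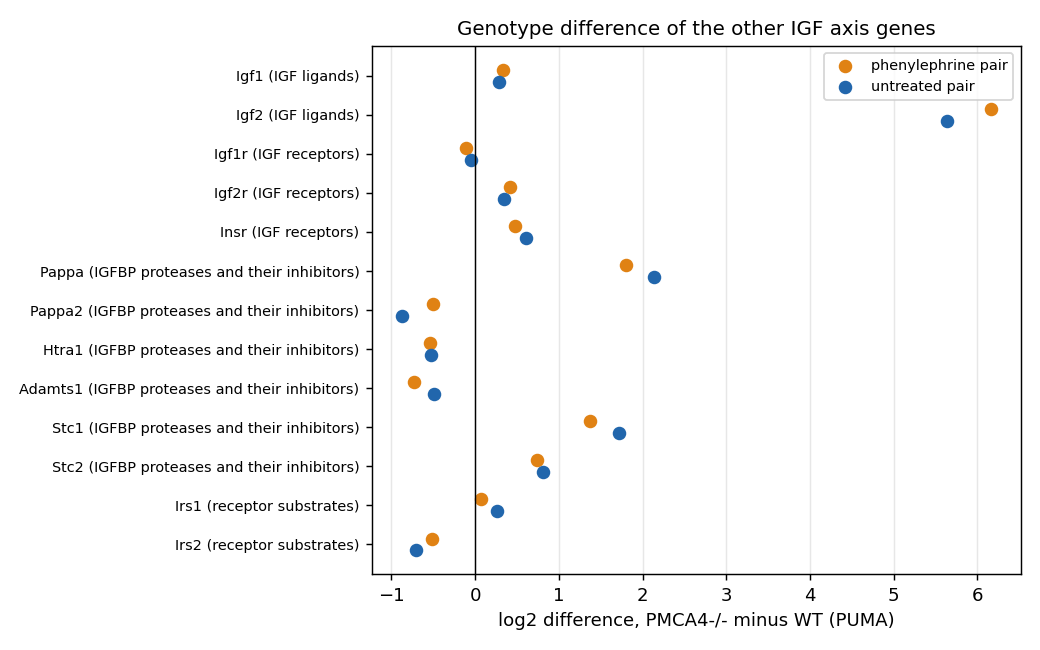
Log2 difference between PMCA4-/- and WT cells (PMCA4-/- minus WT, PUMA, probe set with the highest mean) for the 13 other IGF axis genes above the filter, with the phenylephrine pair in orange and the untreated pair in blue. Igf2, Pappa and Stc1 lie farthest right, and Pappa2, Htra1, Adamts1 and Irs2 lie left of 0 in both pairs.

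The genes whose pattern over the 4 arrays lay nearest to those of Igfbp3, Igfbp4 and Igfbp5 were found among 11424 genes by the Euclidean distance between log2 values centred on the mean of each gene, with dim values raised to the array median. Nearest to Igfbp3 were Ndn (distance 0.12), Ccl2 (0.50) and Enpp2 (0.96). Ndn had intensities with phenylephrine and untreated of 14.4 and 24.8 in PMCA4-/- cells and 3986 and 3774 in WT cells. Ccl2, which encodes a chemokine that attracts monocytes, had 85.7 and 110 in PMCA4-/- cells and 8857 and 8463 in WT cells. Nearest to Igfbp5 were Cilp (0.37), 2900072G11Rik (0.41) and Fbln7 (0.43), and Cilp, which encodes a matrix protein, had 523 and 815 in PMCA4-/- cells and 218 and 255 in WT cells. Nearest to Igfbp4 at its brightest probe set were Golga7 (0.0084), Sowahc (0.010) and Ttc8 (0.012).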

How the data were processed

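RNA pooled from 3 batches of fibroblasts was labelled from 6 µg of total RNA and hybridized to 4 Affymetrix GeneChips (MOE430A in the paper). The authors' deposited tables hold linear intensities of each probe set on each array, from PUMA in one case and RMA in the other. A further table of 180148 values equalled the PUMA intensities within a share of 0.0001. Columns of the authors' fold changes and probabilities of a positive log ratio were not used. The submitters' notes also name MAS5. Tool versions and a genome build were not given in the sources used here. The paper mentions 3 independent RNA pools per genotype, and 1 array per condition was analysed here.

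Intensities were log2-transformed without a pseudocount. Probe sets were tested when their mean intensity exceeded 35.1. lmFit and eBayes of limma 3.58.1 (R 4.3.3) were run on genotype plus treatment, two-sided, with 1 residual and 3.14 prior degrees of freedom. Benjamini-Hochberg adjustment was over 22518 probe sets, with a threshold of 0.05. The fit was also run on simulated arrays with independent noise, which cannot check its p-values against the spread between cultures. The number of arrays limits the precision. Named were all probe sets of the 7 genes, all genes of the IGF axis list, the 3 genes nearest in pattern to Igfbp3, Igfbp4 and Igfbp5, and markers. The family and the lists were chosen with earlier results of these data known. Symbols and neighbours follow RefSeq GRCm38.p6 (37818 probe sets had 1 symbol). Alternatives were RMA, median centring, quantile normalization, dim values raised to the array median, no filter, an upper quartile filter, 1 probe set a gene, an intensity trend and a 1.5-fold threshold.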

Additional observations from a re-analysis of the deposited data

Results flagged for a closer look

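At 6 of the 16 probe sets the sign of the phenylephrine difference was opposite in PMCA4-/- and WT cells, and none of these differences of responses was tested, since each rests on 1 array per condition. Opposite signs were also found at 51.4% of all tested probe sets, against 5 of the 13 tested ones of this family. The log2 response in PMCA4-/- cells minus that in WT cells was 0.68 at the Igfbp4 probe set 1421991_a_at, 0.28 at 1421992_a_at and −0.033 at 1437405_a_at. It was −0.55 at the Igfbp5 probe set 1422313_a_at and −0.041 at the Igfbp6 probe set. At the dim Igfbp7 probe set 1437804_at it was −1.46, and the genotype difference there also changed sign between the pairs, by −1.46 on the log2 scale, with all 4 PUMA intensities under 1.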

How the results depend on the processing

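No paired analysis was possible because each condition had 1 array. Leaving out an array removes the last residual degree of freedom, so no array was left out. The genotype effect was followed at the 13 tested probe sets, with the 2 of Igfbp3 included, which the filter kept for their WT values. Under the alternatives, 82 of 95 values kept their direction and their call. The other 13 kept their direction and lost the call with no filter, where 0 probe sets of the family were called higher and 0 lower of 16, and 0 and 0 genes of the IGF axis, with 10113 of 45037 probe sets at an unadjusted p under 0.05. The upper quartile filter called 2 IGF axis genes lower, of 10 tested, and 3648 of all 11259 probe sets. With 1 probe set a gene, 3 genes of the family were called higher and 2 lower, of 5 tested. Over all 11424 genes 2811 were called higher and 2935 lower. Of the family 0 were at least 2-fold higher and 1, Igfbp3, at least 2-fold lower in both pairs, since fewer probe sets were counted. At 1.5-fold 8 of 13 probe sets were higher in both pairs, against 7.95% of all tested probe sets. For phenylephrine, the upper quartile filter and the intensity trend each called 2 probe sets of the family lower. Over all probe sets they called 4 of 11259 and 31 of 22518 lower. Igfbp5 1452114_s_at was called in both (limma adjusted p = 0.0145 under the filter). The others were Igfbp3 1458268_s_at under the filter and Igfbp3 1423062_at under the trend, both fitted with dim PMCA4-/- values. The trend fit had infinite prior degrees of freedom, so its error came from the trend alone and no p from it is given. The phenylephrine effect changed sign at 1437405_a_at (−0.0084) and 1423756_s_at (−0.0043) of Igfbp4 with quantile normalization and at 1421991_a_at of Igfbp4 with RMA (4.4e-05), each close to 0.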
